A study of Homo sapiens and Mus musculus with 29 samples.

Results

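LY6D, PSCA, LY6E, LY6K, LYPD3 and PLAUR encode surface proteins of the LY6 and uPAR family, and their mRNA levels were followed through orthotopic tumors and metastases of the human pancreatic cancer line HPAF-II. The 6 genes were picked by symbol from the 58719 genes of the expression table. LY6D was picked because of its high level in tumors with both modifications, so its rise over the control tumors is a description and was not tested, and the other 5 genes were added as its relatives. Of the 6 genes, 5 averaged 1 RPKM or more over the 21 libraries, as did 14229 genes in all (RPKM, reads scaled to the length of the transcript and to the depth of the library). LY6K was near 0 throughout.

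Proteins of this family share a compact, three-fingered fold held together by disulfide bonds, and most are tied to the outer side of the cell membrane by a glycosylphosphatidylinositol (GPI) lipid anchor. LY6D is a marker of squamous and other stratified epithelia, and PSCA (prostate stem cell antigen) is a surface antigen that is often present on pancreatic ductal carcinoma cells. PLAUR is the urokinase receptor uPAR, which focuses plasminogen activation at the cell surface, and LYPD3 (C4.4A) is its structural relative in stratified epithelium.

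The study asked how the transcription factors HNF4G and FOXA1 act in pancreatic cancer. HPAF-II cells were injected into the pancreas of NSG mice, which lack functional lymphocytes but keep their own stroma and myeloid cells. Cas9 was delivered to the cells as protein, by electroporation. The control cells (Cas-9-EV in the labels) had no HNF4G guide and an empty vector (EV) in place of FOXA1, the HNF4G-KO cells were a pool of 3 clones with heterozygous frameshift mutations and the same empty vector, the FOXA1-OE cells overexpressed FOXA1 from a lentivirus, and the last group had both changes. Primary tumors came from 3 control mice, 4 HNF4G-KO mice, 3 FOXA1-OE mice and 4 HNF4G-KO + FOXA1-OE mice, of which 1 gave both tumor 2 and tumor 3, so this group had 5 libraries. Metastases were sequenced in both HNF4G-KO groups, namely 2 peritoneal metastases of HNF4G-KO mice and 4 metastases of 3 HNF4G-KO + FOXA1-OE mice (metastasis 1 from the spleen, 2 and 3 from peritoneal fat and 4 from the peritoneum). Metastases 1 and 2 of the last group came from the mouse of tumor 1.

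Depth was 33.1 to 69.6 M reads per library (median 54.5). HNF4G mRNA was not lower in the tumors labelled HNF4G-KO, at 7.09 ± 1.10 RPKM (SD, n = 4 mice) against 2.84 ± 0.547 in the control tumors (n = 3). In the HNF4G-KO + FOXA1-OE tumors it was 4.78 ± 2.47 RPKM (SD, n = 4 mice). Tumor 5 of that group had 1.69 RPKM, below the 2.48 to 3.47 RPKM of the control tumors. FOXA1-OE tumors 1 to 3 had 3.04, 2.26 and 0.495 RPKM of HNF4G. These libraries do not show HNF4G protein, so every statement on HNF4G-KO below refers to the label. FOXA1 mRNA was 6.32 and 8.18 RPKM in FOXA1-OE tumors 1 and 2, but 0.763 RPKM in FOXA1-OE tumor 3, inside the 0.519 to 0.932 RPKM of the control tumors. Among the HNF4G-KO + FOXA1-OE metastases it was 17.9 RPKM in metastasis 2 and 0.535, 1.296 and 1.55 RPKM in metastases 1, 3 and 4. All 6 epithelial markers (EPCAM, CDH1, KRT8, KRT18, KRT19, MUC1) were present in every library, with a summed level of 2834 to 5399 RPKM. In such bulk libraries, fewer cells of a type and less RNA per cell cannot be told apart.

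In the GRCh38 annotation (GENCODE release 44), 4 of the genes lie close together on chromosome 8, in order PSCA (ENSG00000167653.4, chr8:142670308-142682725, plus strand), LY6K (ENSG00000160886.13, chr8:142700111-142705127, plus strand), LY6D (ENSG00000167656.4, chr8:142784882-142786539, minus strand) and LY6E (ENSG00000160932.10, chr8:143017982-143023832, plus strand). The other pair is on chromosome 19, LYPD3 (ENSG00000124466.8, chr19:43460787-43465608) and PLAUR (ENSG00000011422.11, chr19:43646095-43670547), both on the minus strand. PSCA overlaps the protein-coding gene JRK on the opposite strand, whose own mean level was 3.75 RPKM, against 231 RPKM of PSCA. LY6D, LY6E and LY6K each overlap a noncoding transcript on the opposite strand with a mean of at most 0.600 RPKM, and PLAUR overlaps RN7SL368P (1.61 RPKM) on its own strand.

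LY6D was low in control tumors, lower in FOXA1-OE tumors and highest where both modifications were present. The 3 control tumors had 5.42, 5.12 and 6.40 RPKM, and the FOXA1-OE tumors 1.63, 1.54 and 3.18 RPKM. The HNF4G-KO tumors had 34.2, 10.8, 26.0 and 13.2 RPKM. The HNF4G-KO + FOXA1-OE tumors had 97.4, 16.4, 16.2, 30.9 and 123.7 RPKM, with tumors 1 and 5 far above the other 3. No tumor of either HNF4G-KO group was as low as any control, and no FOXA1-OE tumor was as high as one. Ordered by their mean level over mice, the groups ran from FOXA1-OE (2.11 ± 0.923 RPKM, SD, n = 3) over control (5.65 ± 0.669, n = 3) and HNF4G-KO (21.03 ± 11.01, n = 4) to HNF4G-KO + FOXA1-OE (67.1 ± 51.7, n = 4), and the last neighbors in this order overlapped.

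On the log2(RPKM + 1) scale, on which all fold changes and differences here are given, LY6D was 2.94 ± 0.575 (SE) higher with both changes than in control tumors, a 7.70-fold difference that placed it second of 14269 genes ranked from the highest rise. The difference from FOXA1-OE tumors was 4.07 (16.8-fold), also in second place, and was 4.30 without FOXA1-OE tumor 3, the one with no excess of FOXA1 mRNA. HNF4G-KO tumors were 1.59 above control tumors, place 64, and FOXA1-OE tumors 1.13 below them. These values share the control or the doubly modified tumors with the choice of the gene and carry no test. For orientation, the groups of mice did not overlap for 18.9% of all genes between the doubly modified and control tumors (4.70% were called), for 46.4% between HNF4G-KO and control tumors and for 9.25% between FOXA1-OE and control tumors. FOXA1 mRNA in doubly modified tumors 1 to 5 was 11.99, 5.76, 23.1, 6.503 and 4.65 RPKM, beside the LY6D levels given above in the same order, and no relation between them was tested.

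**Figure D1:**
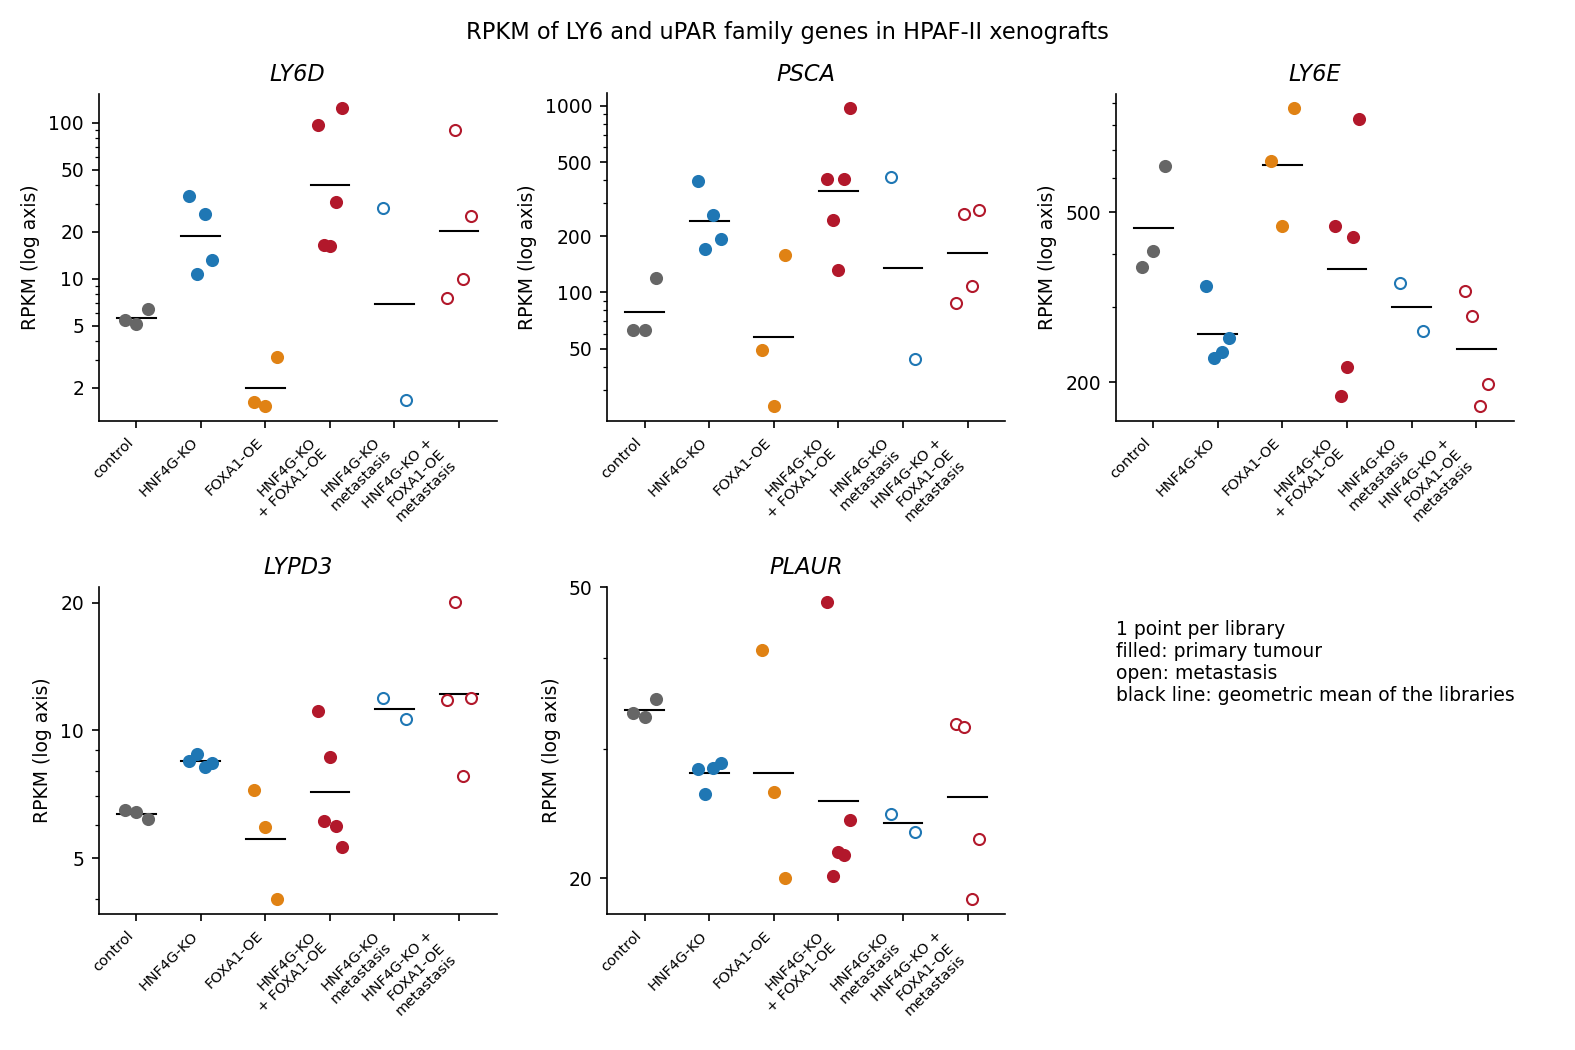
RPKM on log axes for 5 genes, 1 point per library, with filled points for primary tumors, open points for metastases and black lines for the geometric mean of the libraries. LY6D and PSCA are high in both HNF4G-KO groups, up to 123.7 and 969 RPKM, while LYPD3 and PLAUR are packed tightly in control and HNF4G-KO tumors. LY6K, at most 0.0225 RPKM, is not drawn.

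PSCA took much the same course as LY6D at a higher level. Control tumors had 63.0, 62.9 and 120.1 RPKM, HNF4G-KO tumors 394, 172, 259.6 and 194 RPKM, FOXA1-OE tumors 49.4, 24.7 and 159 RPKM, and HNF4G-KO + FOXA1-OE tumors 406, 243, 132, 405 and 969 RPKM. All 4 HNF4G-KO tumors exceeded all 3 controls. The lowest doubly modified tumor (132 RPKM) lay below the highest FOXA1-OE tumor (159 RPKM), although the mice did not overlap once tumors 2 and 3 of 1 mouse were averaged.

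PSCA was the only one of the 4 genes tested that passed the test between primary tumor groups. It was higher with both changes than with FOXA1-OE alone by 2.80 ± 0.595 (SE), a 6.97-fold difference (limma, two-sided, adjusted p = 0.0121, n = 4 against 3 mice), where 7.86% of 14269 genes were called and 14.6% had groups of mice that did not overlap. The exact permutation test of PSCA alone gave p = 0.0571, the smallest these group sizes allow. The call was lost without FOXA1-OE tumor 1 (difference 2.69, adjusted p = 0.0519) and when only these 2 groups entered the fit (adjusted p = 0.119). It held without FOXA1-OE tumor 3 (difference 3.52, limma adjusted p = 0.00351). The doubly modified tumors, whose high LY6D led to the choice of these genes, enter this comparison, and PSCA was the gene most like LY6D. This call is therefore not independent of that choice.

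HNF4G-KO against control tumors gave a PSCA difference of 1.62 ± 0.595 (SE; 95% interval 0.34 to 2.90; limma adjusted p = 0.0879). None of the 4 tested genes passed here, where 12.2% of all genes did. The groups of mice were nonetheless apart for all 4, with PSCA and LYPD3 higher and LY6E and PLAUR lower in every HNF4G-KO tumor, as they were for 46.4% of all genes. The exact permutation p was 0.0571 for each, the smallest possible (0.286 after Benjamini-Hochberg adjustment over 25 such tests). When only control and HNF4G-KO tumors were fitted, the spread of the FOXA1-OE groups no longer entered and all 4 passed, with limma adjusted p of 0.00540 (PSCA), 0.0130 (LYPD3), 0.0180 (LY6E) and 0.0464 (PLAUR), beside 5595 genes called in all.

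Against control tumors, FOXA1-OE tumors had PSCA levels on both sides of the controls (difference -0.42, 95% interval -1.79 to 0.95), and no gene of the 14269 was called in that comparison (652 at an unadjusted p under 0.05). Tumors 1 and 2 (49.4 and 24.7 RPKM) lay below every control. Only tumor 3, without an excess of FOXA1 mRNA, lay above them (159 RPKM). Adding FOXA1 to HNF4G-KO gave a PSCA difference of 0.76 (95% interval -0.42 to 1.95, limma adjusted p = 0.397), where 0.0561% of genes were called and none of these 4, and where all 5 genes overlapped between the groups of mice, unlike 15.2% of genes. The interaction of the 2 modifications, which asks whether the effect of HNF4G-KO differs with FOXA1, was 1.18 for PSCA (95% interval -0.62 to 2.99, limma adjusted p = 0.768) and called 0.0350% of genes. For LY6D it was 2.48, given without a test.

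**Figure D2:**
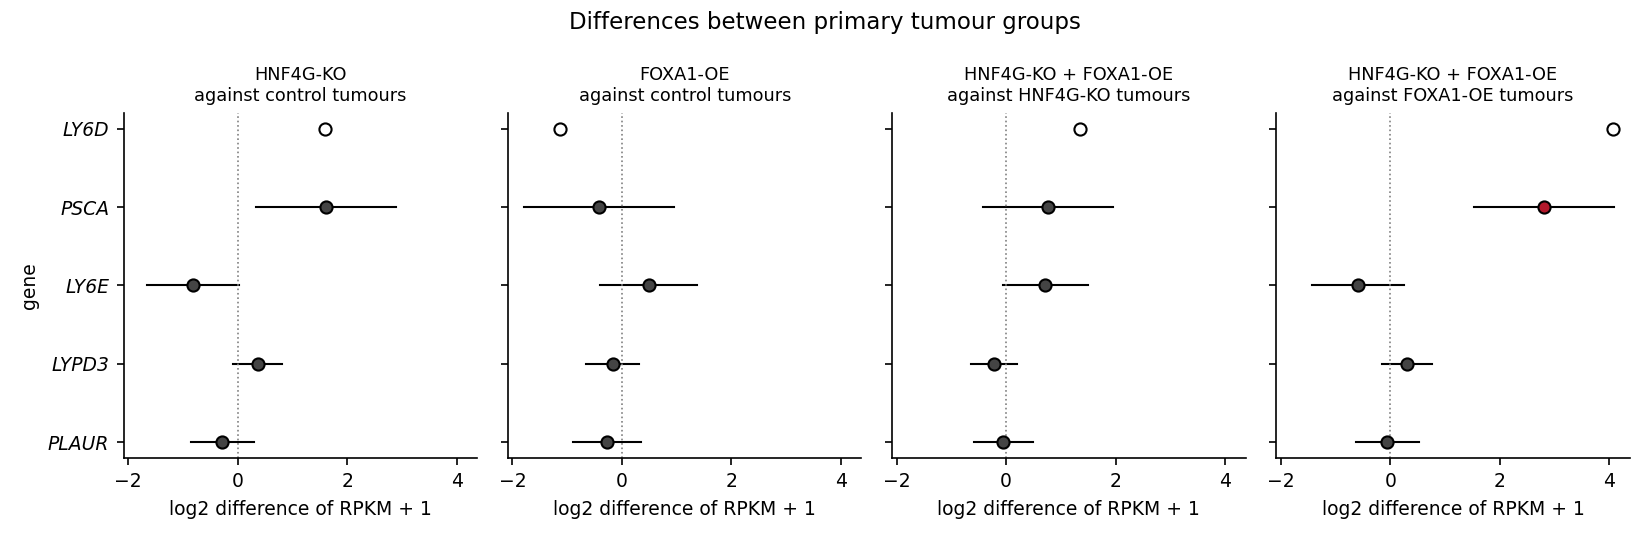
Differences of log2(RPKM + 1) between primary tumor groups for 5 genes, with bars for the 95% interval of the limma fit. PSCA, in red, passed the test in the comparison of the doubly modified with FOXA1-OE tumors (2.80), black points did not pass, and the open points of LY6D were not tested and have no bar.

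LY6D and PSCA rose and fell together across the libraries. Over 19 units (tumors of 1 mouse averaged, and metastases of 1 mouse averaged, so that the spleen and the first fat metastasis counted as 1 unit), PSCA was the gene whose level was most like that of LY6D among 14229 genes (Pearson r = 0.919, Spearman rho = 0.919), and LY6D was in turn the gene most like PSCA. After the group means were subtracted, r was 0.845, so the libraries with high LY6D within a group tended to be those with high PSCA. The next genes after PSCA were MFSD2A (r = 0.904), a lipid transporter, and the noncoding LINC01133 (r = 0.895), and after LY6D in the list of PSCA came GPT (r = 0.865), alanine aminotransferase, and TMEM54 (r = 0.863). These points share libraries, depth and scaling, and are a description. PSCA had 2.94 to 49.98 times the RPKM of LY6D, with a median of 12.3 over 21 libraries. The median ratio was 8.13 in the doubly modified tumors, 13.1 in HNF4G-KO, 12.3 in control and 30.3 in FOXA1-OE tumors.

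The start sites of PSCA and LY6D are 116 kb apart. Of the 7 protein-coding genes between them in the table, THEM6, at 22.9 RPKM on average, was the only one that averaged 1 RPKM or more, and it had r = -0.21 with LY6D and differences of -0.29 (HNF4G-KO against control) and -0.49 (doubly modified against FOXA1-OE). LYPD2, another LY6 relative in this interval, had 0.0590 to 3.80 RPKM. JRK, which overlaps PSCA, had r = -0.10 with LY6D, and LY6E had r = -0.08. The neighbor that most resembled LY6D within 500 kb, apart from PSCA, was GPIHBP1 (r = 0.803), a LY6 protein that holds lipoprotein lipase on capillary endothelium, at 0.0178 to 6.91 RPKM. Its difference between doubly modified and FOXA1-OE tumors was 1.65, given without a test because the gene was picked for its likeness to LY6D and averaged 1 RPKM through the libraries where it was high. The neighborhood list for 8q24.3 leaves out the members, among them PSCA, which was called in that comparison. Among its 24 tested genes, none besides GPIHBP1, whose result is not counted, was called there, where 7.86% of all genes were. Between HNF4G-KO and control tumors 0 of the 24 were called, where 12.2% of all genes were, with a median difference of -0.24 against 0.01 over all genes.

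LY6E, a GPI-anchored protein induced by interferon and known for restricting the entry of enveloped viruses, had the highest mean level of the 6 and did not follow LY6D and PSCA. Control tumors had 372, 406 and 639.8 RPKM, HNF4G-KO tumors 336, 228, 235 and 254 RPKM, FOXA1-OE tumors 659, 464 and 875 RPKM, and doubly modified tumors 463, 186, 218, 437 and 827 RPKM. Every HNF4G-KO tumor was below every control, the reverse of LY6D and PSCA, but the doubly modified tumors spanned the whole range. The difference between HNF4G-KO and control tumors was -0.82 ± 0.388 (SE; limma adjusted p = 0.171), that of doubly modified against HNF4G-KO tumors 0.72 (adjusted p = 0.265) and that against FOXA1-OE tumors -0.59 (adjusted p = 0.382). FOXA1-OE against control tumors gave 0.49 (95% interval -0.40 to 1.38). Its level most resembled those of METTL27 (r = 0.959), GSDMD (r = 0.955), the pore-forming protein of pyroptosis, which is also encoded at 8q24.3, and NDUFB11 (r = 0.955), a subunit of respiratory complex I.

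LY6K, a cancer-testis antigen, had 0 to 5 reads in any library, at most 0.0225 RPKM. With so few reads no difference between groups was detectable at this depth, and no fold change or test is given.

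LYPD3 was low, and even within the control and HNF4G-KO tumors. Control tumors had 6.51, 6.42 and 6.18 RPKM, HNF4G-KO tumors 8.45, 8.80, 8.21 and 8.40 RPKM, FOXA1-OE tumors 7.24, 5.91 and 4.00 RPKM, and doubly modified tumors 11.1, 6.10, 8.66, 5.94 and 5.32 RPKM. The HNF4G-KO tumors exceeded the controls by 0.36 ± 0.211 (SE; 1.28-fold, limma adjusted p = 0.264), without overlap. The other groups reached to both sides of the controls, and the difference between doubly modified and FOXA1-OE tumors was 0.31 (95% interval -0.14 to 0.76). The genes most like LYPD3 were THBD (r = 0.880), the endothelial anticoagulant receptor thrombomodulin, ANXA7 (r = 0.880) and the transcription factor KLF2 (r = 0.878).

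PLAUR was lower, not higher, in the HNF4G-KO tumors. Control tumors had 33.6, 33.2 and 35.2 RPKM, HNF4G-KO tumors 28.2, 26.1, 28.2 and 28.7 RPKM, FOXA1-OE tumors 41.0, 26.2 and 20.03 RPKM, and doubly modified tumors 47.7, 20.1, 21.7, 21.5 and 24.0 RPKM. Of the doubly modified tumors, 4 lay below all HNF4G-KO tumors, and tumor 1 was above every other library. The HNF4G-KO tumors were below the controls by 0.824-fold (difference -0.28 ± 0.270, SE, limma adjusted p = 0.506). FOXA1-OE tumors lay on both sides of the controls, with a difference of -0.28 and a 95% interval of -0.90 to 0.34. The genes most like PLAUR were ITPKC (r = 0.865), AAMP (r = 0.853) and MAFF (r = 0.832), the last a small stress-induced bZIP factor.

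Promoter sequences from RefSeq (GRCh38.p14, 250 bases before to 50 bases after the start site, in the direction of transcription) were matched for 2 of the 6 genes, LYPD3 (chr19:43465559-43465858, minus strand) and PLAUR (chr19:43670120-43670419, minus strand). Only these 2 genes had a promoter sequence available, so those of LY6D, PSCA, LY6E and LY6K were not searched. The levels of LYPD3 and PLAUR, structural relatives encoded on 1 chromosome, were only loosely related over the 19 units (r = 0.216). Both strands were searched for the AP-1 letters TGANTCA, the FOXA letters TGTTTAC and the HNF4 letters CAAAGTCCA, and matches are in capitals.
LYPD3: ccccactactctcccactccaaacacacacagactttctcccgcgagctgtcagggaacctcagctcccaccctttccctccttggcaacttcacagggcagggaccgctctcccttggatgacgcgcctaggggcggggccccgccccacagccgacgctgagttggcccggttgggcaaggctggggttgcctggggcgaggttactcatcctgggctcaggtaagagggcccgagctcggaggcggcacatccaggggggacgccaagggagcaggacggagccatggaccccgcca
PLAUR: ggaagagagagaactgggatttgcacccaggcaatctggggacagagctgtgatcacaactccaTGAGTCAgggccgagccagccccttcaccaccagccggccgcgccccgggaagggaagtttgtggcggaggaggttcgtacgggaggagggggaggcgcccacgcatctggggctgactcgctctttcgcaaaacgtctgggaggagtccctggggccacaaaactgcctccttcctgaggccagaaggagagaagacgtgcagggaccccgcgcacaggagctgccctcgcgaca
PLAUR held 1 match, the AP-1 letters, beginning 186 bases before the start site, and LYPD3 held none of the 3. Of 35116 promoters of the same length, 7.71% held the AP-1 letters, 3.42% the FOXA letters and 0.384% the HNF4 letters. A match describes these letters only and is not a measured binding site.

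The mice of the groups without FOXA1-OE were closely alike in LYPD3 and PLAUR. The highest library of a group had 1.05 times (LYPD3) and 1.06 times (PLAUR) the level of the lowest among control tumors, and 1.07 and 1.10 times among HNF4G-KO tumors. The same ratios were 1.81 and 2.05 in FOXA1-OE and 2.09 and 2.37 in doubly modified tumors. FOXA1-OE tumor 3, without an excess of FOXA1 mRNA, was the lowest of its group in LYPD3 and PLAUR and the highest in PSCA and LY6E. A wider SD in both FOXA1-OE groups than in both other groups was found for 4 of 5 genes (all but LY6D) and for 58.0% of all genes, whose median SD was 0.17, 0.16, 0.35 and 0.32 in control, HNF4G-KO, FOXA1-OE and doubly modified tumors.

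Ligands and partners of uPAR and LYPD3 were measured in the same fit. Of 18 tested genes in this list, 3 rose and 1 fell in HNF4G-KO over control tumors (median difference -0.11, against 0.01 over all genes, of which 6.18% rose and 5.99% fell). AGR3 rose by 2.28 ± 0.379 (SE, limma adjusted p = 0.00387) and AGR2, its relative and a ligand described for LYPD3, by 0.74 (adjusted p = 0.0218). LRP1, an endocytic receptor that takes part in clearing uPAR from the surface, rose by 1.26 (adjusted p = 0.0160), and SERPINA5, a urokinase inhibitor, fell by 1.21 (limma adjusted p = 0.02001). The uPAR ligand urokinase itself, PLAU, had a difference of -0.58 (adjusted p = 0.193), while VTN (vitronectin) was below the level tested. Between doubly modified and FOXA1-OE tumors 1 of 18 rose, LRP1 (1.35), and 1 fell, SERPINA5 (-1.86), where 3.32% of all genes rose and 4.54% fell.

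Other LY6 and uPAR relatives were mostly silent. The table held 28 of 29 listed, 6 of them averaging 1 RPKM or more over all libraries, and 8 were tested among the tumors. LYPD1 was the 1 called between HNF4G-KO and control tumors, where it fell by 0.89 ± 0.187 (SE, limma adjusted p = 0.0126), and it was also lower in doubly modified than in FOXA1-OE tumors (-1.32, adjusted p = 0.00121). In this second comparison LYPD1 was the 1 called lower of the 8, where 7.86% of all genes were called, against 12.2% in the first. GPIHBP1 was also among the 8 but, for the reason given above, its result is not counted. CD59, the GPI-anchored inhibitor of complement lysis, had differences of -0.41 (adjusted p = 0.139) and -0.52 (adjusted p = 0.0901) in the same comparisons. Of 28 tested genes for the synthesis and remodelling of the GPI anchor, 3 rose in HNF4G-KO tumors (PIGZ by 1.06, MPPE1 by 0.65 and PIGL by 0.38) and 0 fell, with a median of 0.01, as over all genes, of which 12.2% were called, and 0 were called between doubly modified and FOXA1-OE tumors.

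Stratified epithelial genes, among which LY6D is counted as a marker, were measured in the same fit. Of 14 tested, 4 rose and 2 fell in HNF4G-KO over control tumors, and 7 rose and 1 fell in doubly modified over FOXA1-OE tumors, with medians of 0.61 and 1.20 against 0.01 and -0.03 over all genes. Over all genes 6.18% rose and 5.99% fell in the first comparison, and 3.32% rose and 4.54% fell in the second. SPRR1A rose by 1.90 and 3.01 in these comparisons (limma adjusted p = 0.00473 and 0.000293) and SPRR3 by 1.98 and 2.46, both precursors of the cornified envelope. SPRR1B rose by 1.80 in the second. The keratin KRT6B fell by 1.78 in the first and fell by 1.09 in the second.

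Markers of host cell types were read here as human genes, although the host cells were mouse cells. Their levels therefore do not separate host RNA from RNA of the HPAF-II cells. Of 7 tested stroma markers, VIM was called lower in HNF4G-KO than in control tumors (-1.36) and in doubly modified than in FOXA1-OE tumors (-1.08), and the summed level of all 10 markers was 77.4 to 103 RPKM in HNF4G-KO, 115 to 245 in control, 94.2 to 212 in FOXA1-OE and 75.9 to 149 in doubly modified tumors. LUM, below the level tested, went the other way, with medians of 0.608 against 0.265 RPKM and 0.659 against 0.0454 RPKM in these comparisons. In the second comparison the medians of DCN (0.0771 against 0.0106 RPKM), PDGFRB (0.507 against 0.233) and ACTA2 (8.39 against 7.86) were higher too. The medians of the remaining stroma markers were lower in both comparisons. Of the 9 blood and myeloid markers, CD14 was called lower in the same comparisons (-1.41 in each), and in HNF4G-KO against control tumors the medians of CSF1R were 0.928 against 2.42 RPKM (not called) and those of HBB, below the level tested, 0.175 against 1.46 RPKM. CD68, also below that level, went the other way (medians of 0.294 against 0.120 RPKM). So did LYZ (633 against 521), PTPRC (0.108 against 0.0994) and HBA2 (0.0197 against 0). In doubly modified against FOXA1-OE tumors, CD68 (0.338 against 0.187), HBB (0.535 against 0.408), ITGAM (0.218 against 0.0962) and PTPRC (0.102 against 0.0447) had higher medians. HBA2 (0.0684 against 0.0612) did as well, while CSF1R (1.02 against 1.47) and LYZ (523 against 574) had lower ones. The summed level of all 9, nearly all of it LYZ (519 to 714 RPKM in control and 494 to 744 in HNF4G-KO tumors), was 539 to 729 RPKM in control, 499.8 to 751 in HNF4G-KO, 76.4 to 603 in FOXA1-OE and 151 to 677 in doubly modified tumors. The lowest of these sums, 76.4 and 151 RPKM, were in FOXA1-OE tumor 3 and doubly modified tumor 5. PTPRC was at most 0.331 RPKM and HBA1, HBA2, ITGAM and the fibroblast marker DCN were under 1 RPKM in every library. The 8 acinar markers summed to 472 RPKM in 1 control tumor and to at most 42.3 RPKM in every other library, and of the 6 adipose markers ADIPOQ, FABP4, LEP and PLIN1 were under 1 RPKM everywhere. The other adipose markers, CFD and CIDEC, were expressed, and the list summed to 21.3 to 23.7 RPKM in control, 22.5 to 38.8 in HNF4G-KO, 26.5 to 32.2 in FOXA1-OE and 24.2 to 72.1 in doubly modified tumors, and to 25.8 to 67.6 RPKM in the metastases. The highest of these tumor sums, 65.3 and 72.1 RPKM, were in doubly modified tumors 1 and 5, which also had the highest LY6D. Nearly all of each sum was CFD and CIDEC, and no relation to LY6D was tested. The part of host cells in the levels of the 6 genes was not tested.

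In metastases, LY6D and PSCA could differ widely between sites of 1 mouse. The mouse of doubly modified tumor 1 had 97.4 RPKM of LY6D in the tumor, 90.0 RPKM in a metastasis in fat and 7.48 RPKM in the spleen, a 13.02-fold range, and 406, 264 and 88.1 RPKM of PSCA in the same order. FOXA1 mRNA in these samples was 11.99, 17.9 and 0.535 RPKM, so the spleen metastasis was the one low in all 3 genes. The mouse of doubly modified tumor 4 had 30.9 RPKM of LY6D in the tumor and 25.4 RPKM in the metastasis, with FOXA1 at 6.503 and 1.55 RPKM. Metastasis 3, from a mouse without a tumor library, had 10.0 RPKM of LY6D and 108 RPKM of PSCA.

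The 2 HNF4G-KO mice went in opposite directions. LY6D went from 10.8 RPKM in tumor 2 to 28.5 RPKM in the metastasis of its mouse, and from 13.2 RPKM in tumor 4 to 1.68 RPKM. PSCA went from 172 to 415 RPKM and from 194 to 43.8 RPKM in the same mice. LYPD3 was higher in the metastasis in all 4 mice with both kinds of sample, in the mouse of doubly modified tumor 1 in both metastases, by 0.08 to 0.90.

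None of the tested differences between metastases and tumors passed. For HNF4G-KO, where LY6D could be tested because neither the control nor the doubly modified tumors enter the contrast, its difference was -1.17 ± 0.908 (SE; limma adjusted p = 0.588; exact permutation p = 0.533, smallest possible 0.133) with 0.0426% of 14099 genes called, and it was 0.56 without metastasis 2. The doubly modified tumors still shared the fit and so its SE, and neither test paired a metastasis with the tumor of its mouse. LYPD3 was 0.37 higher and PLAUR 0.22 lower (difference -0.22), both without overlap, as for 33.0% of genes. For the doubly modified group, 0.00709% of genes were called and the groups of mice were apart for 6.53% of genes and for none of these 5, and the differences were -1.30 for PSCA (adjusted p = 0.527), -0.96 for LY6E (adjusted p = 0.478), 0.60 for LYPD3 (95% interval 0.09 to 1.10, limma adjusted p = 0.475) and -0.16 for PLAUR (adjusted p = 0.816), with LY6D at -1.35, not tested. Leaving out the spleen metastasis moved LY6D to -0.77 and PSCA to -1.04. Host stroma markers summed to 109 to 254 RPKM in these metastases and to 103 and 477 RPKM in those of HNF4G-KO mice, and their part in the differences was not tested.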

How the data were processed

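The authors aligned 50-base single-end reads with STAR 2.6.1a, counted them per gene and deposited RPKM values per library. The labels' processing notes name featureCounts 2.0.4 and the builds GRCh38 and hg38, while the study's methods name GRCh37, so the build behind the values is not settled and the coordinates given are those of the GRCh38 annotation. Whether counting used strand is not given in the sources used here, so a gene and its antisense partner cannot be told apart. Whole reads were recovered from the steps of the RPKM values (at least 99.7% of low values within 0.02 of a whole read), which gave depth and reads per gene. Values were tested as log2(RPKM + 1) in R 4.3.3 with limma 3.58.1 (trend, two-sided, Benjamini-Hochberg over all genes averaging 1 RPKM or more, called at an adjusted p under 0.05). Libraries of 1 kind from 1 mouse were averaged, and the 4 tumor groups shared 1 fit, as did tumors and metastases of both HNF4G-KO groups. p-values measure the spread between mice injected with the same cells. Single genes also had an exact permutation test, two-sided. The fit was also run on simulated data, but the outcome is not reported here and no error rate is drawn from it.

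The members and gene lists were chosen with earlier results of these data known. Beside the 6 members, the text names FOXA1 and HNF4G, the 3 genes most like each member, up to 3 called genes per list with the largest change, and genes whose role is given. JRK, THEM6, LYPD2, GPIHBP1 and single cell type markers were named after their values were seen. Tumor and metastasis pairs come from the same mouse by the labels (correlation of deviations from the group means -0.03 to 0.30). Alternatives were another pseudocount, no filter, fewer groups, shifted medians, unaveraged mice, a minimum change, blocks and left-out samples. The 8 libraries of mouse KPC lines were not used here.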

Additional observations from a re-analysis of the deposited data

Results flagged for a closer look

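PLAUR in HNF4G-KO + FOXA1-OE tumor 1 (47.7 RPKM) stood apart from the other 4 libraries of its group, which lay between 20.1 and 24.0 RPKM, by the ratio of its gap to the whole range of the group. Among 15 groups checked in this way (5 genes in the 3 groups of 4 or 5 libraries), chance alone flags about 1 in 20 if the libraries are independent. Mice were not averaged here, and tumors 2 and 3 of this group came from 1 mouse. The same holds for metastases 1 and 2 of the doubly modified group, so that rate is only a rough guide.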

How the results depend on the processing

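The number of tested members called stayed the same under most alternatives. For HNF4G-KO against control tumors it went from 0 to 4 with only the 2 groups compared and to 1 (PSCA, difference 1.65, limma adjusted p = 0.0265) with the tumor number as a replicate block. For doubly modified against FOXA1-OE tumors it went from 1 to 0 with only the 2 groups compared, and ranged from 0 to 1 when single mice were left out. Same-numbered tumors share only a number (correlations of deviations -0.27 to 0.63), and this block changed no other call. With the mouse as a block, 0 members were called between metastases and tumors, beside 6 genes in all (1 without the block) for the doubly modified and 74 (6 without) for the HNF4G-KO group. Over all genes, 1736 were called between HNF4G-KO and control tumors, 285 without control tumor 2 and 5595 with only the 2 groups compared. Differences that changed sign were all uncalled, and the cause was not tested. With medians shifted to be equal, PLAUR was 0.045 in doubly modified against HNF4G-KO tumors and LYPD3 0.0097 in the interaction. With the replicate block, PLAUR was 0.014 against FOXA1-OE tumors and the interaction 0.029 for LYPD3 and -0.0082 for LY6E. With samples of 1 mouse kept separate, PLAUR was 0.016 in doubly modified metastases against tumors. Leaving out single mice gave -0.32 to 0.066 for PLAUR in doubly modified against HNF4G-KO tumors and -0.32 to 0.22 against FOXA1-OE tumors, and for the interaction -0.086 to 0.59 for LY6E, -0.25 to 0.11 for LYPD3 and -0.042 to 0.50 for PLAUR. It gave -1.14 to 0.18 for PSCA and -0.33 to 0.035 for LYPD3 in FOXA1-OE against control tumors, -0.37 to 0.11 for PLAUR in doubly modified metastases, and -2.44 to 0.78 for PSCA and -2.89 to 0.56 for LY6D in HNF4G-KO metastases. With 2 to 4 mice a group, small differences could not be resolved.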
